A study of Mus musculus with 2 samples.

Results

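The genes described here are the spliceosomal small nuclear RNA (snRNA) genes that received enough reads to be counted. They are the genes whose transcripts are all annotated as snRNA and whose expected count was at least 10 in both libraries. That rule found 30 of 1383 annotated snRNA genes, or 2.17%, and the same minimum was met by 26.3% of all 55536 annotated genes and by 0.673% of the 6835 genes of at most 200 bases. The rule uses the counts themselves, so the number of genes that met it is a description of these libraries and supports nothing further. By sequence, 16 of the 30 genes belong to the U1 family, 11 to U2, 2 to U4 and 1 to U12. Families were assigned by the best local alignment to 1 representative of each (2 for U1). The gene symbols name a family only for Rnu1a1, Rnu1b1, Rnu1b2, Rnu1b6, Rnu2-10 and Rnu12, and the U4 label of Gm24265 and Gm24407 rests on their sequence. Because identical copies are common, the 30 genes carry 16 distinct sequences.

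The data were 2 total RNA-seq libraries, depleted of ribosomal RNA, from macrophages grown from the bone marrow of C57BL/6J mice. The cells had been stimulated with 100 ng/ml lipid A, the TLR4-binding moiety of lipopolysaccharide, and harvested at 25 min. A fraction described as nucleoplasmic, and elsewhere in the labels as nuclear, was taken before RNA isolation. Library 1 was made from 500 ng and library 2 from 1 µg of RNA. They form a single group of 2 replicates with a shared donor entry, so that their spread may be partly technical. A fragment size of 250 to 400 bases was given for both libraries. The longest annotated snRNA gene has 200 bases, and what this means for the snRNA counts was not tested. No other genotype, treatment or time enters, and no test between conditions could be made. The gene table summed to 13506939 expected counts in replicate 1 and 17932332 in replicate 2, and the alignment-free table to 25317223 and 26308342. In the gene table all 7 macrophage markers exceeded 1 TPM in both libraries, with means from 37.8 to 1648 TPM. Of 22 markers of neutrophils, B cells, T and NK cells, erythroid cells, mast cells and fibroblasts only S100a9 did, at 1.72 and 1.58 TPM. The summed TPM of these 6 other lists lay between 0 and 3.91 in each library, against 4135 and 3420.0 for the macrophage list. Cd3e, Hbb-bs, Mcpt4 and Fcer1a were listed at 0 in that table. In alignment-free TPM S100a9 was at 0.747 and 0.267, while the T cell marker Cd3d was at 8.72 and 1.10. In bulk RNA of this kind, fewer cells of a type and less RNA per cell cannot be told apart.

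Spliceosomal snRNAs are short, abundant, uridine-rich RNAs that assemble with a ring of Sm proteins and remove introns from pre-mRNA. U1 pairs with the 5′ splice site, U2 pairs with the branch point, and U4 holds U6 in an inactive duplex until the spliceosome is activated, while U5 contacts the exon ends. U12 takes the place of U2 in the minor spliceosome, with U11, U4atac and U6atac. Apart from U6 and U6atac, which RNA polymerase III makes, these RNAs are transcribed by RNA polymerase II, processed by the Integrator complex and matured outside the nucleus before they return to it. They accumulate as stable particles in all nucleated cells, and their genes occur in multicopy clusters and as many scattered pseudogenes.

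The 4 sequences below, 1 from each family, show the parts by which these RNAs act. They were read from the GENCODE M21 transcripts (mm10) and are written 5′ to 3′ as DNA. The first run of capitals is the stretch that pairs with the 5′ splice site in U1, with the branch site in U2 and U12, and with U6 in U4, and the second run is the Sm protein binding site.
Rnu1a1: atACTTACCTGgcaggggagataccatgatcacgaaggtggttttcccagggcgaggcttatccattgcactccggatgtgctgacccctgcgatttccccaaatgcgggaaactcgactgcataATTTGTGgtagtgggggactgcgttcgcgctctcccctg
Rnu2-10: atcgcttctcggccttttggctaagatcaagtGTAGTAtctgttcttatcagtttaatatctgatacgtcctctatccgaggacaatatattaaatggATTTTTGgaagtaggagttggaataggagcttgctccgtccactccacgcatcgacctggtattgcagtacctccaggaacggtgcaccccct
Gm24265: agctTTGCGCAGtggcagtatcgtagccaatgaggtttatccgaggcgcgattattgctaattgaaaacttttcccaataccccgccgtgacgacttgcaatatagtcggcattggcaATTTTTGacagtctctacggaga
Rnu12: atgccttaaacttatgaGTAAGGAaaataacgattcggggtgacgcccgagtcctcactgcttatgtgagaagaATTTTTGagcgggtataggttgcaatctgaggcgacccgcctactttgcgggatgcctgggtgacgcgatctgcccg
Rnu1a1 lies at chr11:87422867-87423030 (+), Rnu2-10 at chr11:101658238-101658428 (+), Gm24265 at chr5:115489459-115489599 (+) and Rnu12 at chr15:83149644-83149794 (+).

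All counted genes held these elements. In the U1, U2 and U4 families a smaller share of the uncounted relatives did, which is given as counts with no test since copies share their sequence. The U1 letters ACTTACCTG were present in 16 of 16 counted U1 genes and in 36 of the other 176 genes of the family (20.5%). The U2 letters GTAGTA were present in 11 of 11 counted genes and in 10 of 28 others (35.7%), and TTGCGCAG of U4 in 2 of 2 and in 9 of 44 others (20.5%). The U12 letters GTAAGGA were in Rnu12 and in all 4 other genes of its family. The Sm site letters ATTTNTG were found in all 30 counted genes, in 79 of 176 other U1 genes, 10 of 28 other U2 genes, 6 of 44 other U4 genes and 3 of 4 other U12 genes. On either strand, these letters occur in 3.98% (ACTTACCTG), 4.77% (GTAGTA), 16.5% (TTGCGCAG), 1.74% (GTAAGGA) and 30.7% (ATTTNTG) of all 1383 snRNA genes. In Gm24265 the letters TTGCGCAG are the exact reverse complement of CTGCGCAA in Rnu6. A run of the same length, 8 bases, complementary to Rnu6 also occurs in Rnu1a1, so the length of the match is not particular to U4. These matches are letters in a window and not measured binding. The 30 counted genes were also close to full length: 237 of 1383 snRNA genes aligned over at least 0.9 of the best possible score with their representative, and the 30 were among them. Of the full-length genes, 16 of 25 in the U1 family and 11 of 13 in the U2 family were counted. Another 189 of the 237 were U6 genes, and none of these was counted. They cannot show whether full-length form brings a count. The gene table gave 957 of all 958 U6 genes an effective length, explained below, of 0 in both libraries.

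Several members differ from their family representative at single bases, and the sequences below are the variants to which the counts turn. Capitals mark the bases that differ from Rnu1a1 (Gm22513, Gm22614), Rnu2-10 (Gm24497, Gm25939, Gm22973) or Gm24265 (Gm24407).
Gm22513: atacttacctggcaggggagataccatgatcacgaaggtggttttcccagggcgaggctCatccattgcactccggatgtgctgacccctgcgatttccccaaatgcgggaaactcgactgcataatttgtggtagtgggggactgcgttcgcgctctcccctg
Gm22614: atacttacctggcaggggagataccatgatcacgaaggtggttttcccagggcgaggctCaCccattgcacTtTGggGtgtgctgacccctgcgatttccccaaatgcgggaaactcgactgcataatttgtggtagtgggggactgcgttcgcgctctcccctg
Gm24497: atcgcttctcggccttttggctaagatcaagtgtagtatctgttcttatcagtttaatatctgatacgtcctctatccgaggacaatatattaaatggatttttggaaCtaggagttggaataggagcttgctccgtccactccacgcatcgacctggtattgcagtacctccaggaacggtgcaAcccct
Gm25939: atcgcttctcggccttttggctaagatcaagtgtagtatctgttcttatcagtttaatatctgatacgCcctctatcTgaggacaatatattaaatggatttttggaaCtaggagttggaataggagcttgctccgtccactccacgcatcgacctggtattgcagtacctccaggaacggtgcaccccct
Gm22973: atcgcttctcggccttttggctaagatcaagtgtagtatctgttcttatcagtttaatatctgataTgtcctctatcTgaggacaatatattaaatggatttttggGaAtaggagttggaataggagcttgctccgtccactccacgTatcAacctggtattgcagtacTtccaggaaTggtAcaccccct
Gm24407: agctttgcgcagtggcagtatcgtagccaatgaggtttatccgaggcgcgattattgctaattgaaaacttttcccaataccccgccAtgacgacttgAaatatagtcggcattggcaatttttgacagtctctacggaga
With positions counted from 1 at the 5′ end, Gm22513 carries T60C, Gm24497 carries G109C and C186A, Gm25939 carries T69C, C78T and G109C, and Gm24407 carries G88A and C99A. Gm22973 has 9 differences from Rnu2-10 and is the most diverged U2 gene counted. Gm22614 is 1 base longer than Rnu1a1, is identical to it at 159 of 165 aligned positions (96.4%) and is closer to Rnu1b6, with 164 of 166 (98.8%).

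The U1 genes fall into 3 genomic groups. A stretch of 41.8 kb on chromosome 12 (54696782 to 54738622, mm10) holds 7 of them, Rnu1a1 and Gm22068 lie 4.01 kb from end to end on chromosome 11, and 7 genes lie on chromosome 3 between 96328425 and 96488893. Rnu1a1, Gm22068, Gm22317, Gm22634, Gm23804, Gm25679 and Gm26444 have the same sequence, and the gene table gave each of them 824 counts in replicate 1 and 2928 in replicate 2. Their TPM, the count per effective base scaled to a total of 1e+06, was 7642 and 8529 each. The order of the libraries was thus the same on both scales, with a much smaller difference in TPM.

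Gm22513 (ENSMUSG00000096349.1, chr12:54696782-54696945, +), which differs from these copies only by T60C, had the highest TPM of all members in both libraries. It had 2764 counts and 25619 TPM in replicate 1, and 9265 counts and 26986 TPM in replicate 2. The 7 genes with the Rnu1a1 sequence had more together, 5770 and 20498 counts. Gm22513 alone held 26.8% and 26.3% of the U1 counts, 3.35 and 3.16 times the count assigned to each copy of Rnu1a1. In the alignment-free table these shares were 27.4% and 26.4%, so the high count of this variant did not depend on which table was read. Gm24305, with A26G relative to Rnu1a1, had 119 and 475 counts and 1106 and 1383 TPM.

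The U1 genes closer to Rnu1b6 were lower. Together the 9 genes nearer to Rnu1a1 held 83.8% of U1 counts in replicate 1 and 85.9% in replicate 2, and the 7 nearer to Rnu1b6 held 16.2% and 14.1%. The alignment-free shares of the latter were 17.1% and 14.5%. Most of that came from Gm22614 and Gm25890 (chr3:96488729-96488893, + and chr3:96486555-96486719, −), which are identical and had 749.9 and 2164 counts each, or 6709 and 6102 TPM. The genes that carry U1b symbols had far less. Rnu1b6, with its copies Gm24830 and Gm26232, had 42.2 and 182 counts each (365 and 496 TPM). Rnu1b1 and Rnu1b2, which differ from Gm22614 only by C33T, had 23.2 and 42.4 counts each (208 and 119.7 TPM), so that Gm22614 had 32.3 and 51.0 times the count of Rnu1b1. These paired loci were the lowest U1 genes counted in both libraries.

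**Figure D1:**
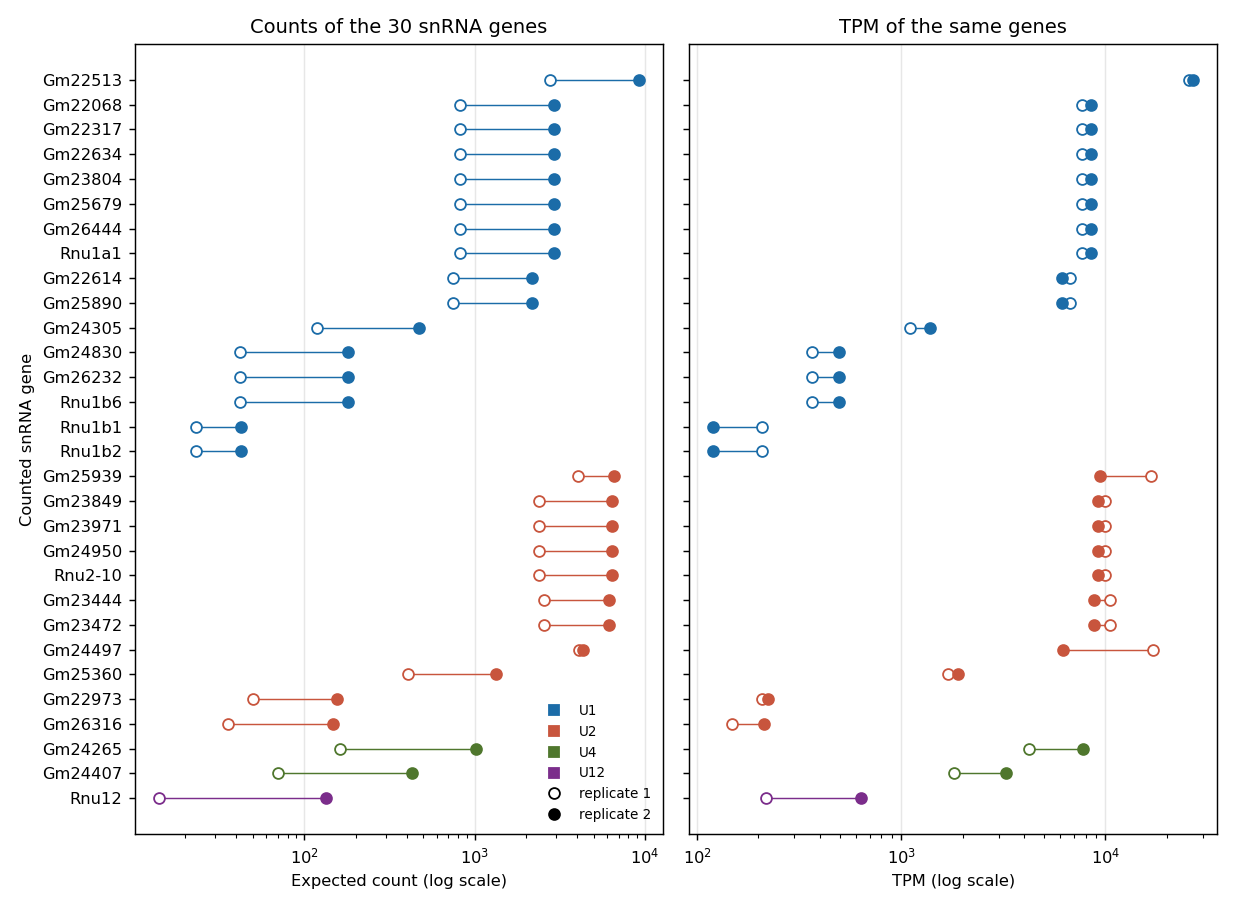
Expected counts (left) and TPM (right) of each counted snRNA gene on log axes, with open circles for replicate 1, filled circles for replicate 2 and colours for the family. Counts were higher in replicate 2 for all 30 genes, whereas TPM differed in both directions, from 17041 to 6190 for Gm24497 and from 219 to 638 for Rnu12.

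The U2 genes lie in 2 clusters, 4 genes within 29.0 kb on chromosome 1 (72226240 to 72255198) and 5 within 53.6 kb on chromosome 11 (101604850 to 101658428), with Gm23444 elsewhere on chromosome 11 and Gm22973 on chromosome 12. Rnu2-10, Gm23849, Gm23971 and Gm24950 are identical and had 2399 and 6426 counts each, or 9983 and 9187 TPM. Gm23444 and Gm23472 are identical to each other, carry G109C, and had 2542 and 6162 counts each, or 10578 and 8809 TPM. In TPM per copy these 2 sets differed little within either library.

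Gm25939 and Gm24497, both in the chromosome 1 cluster, had the highest U2 counts in replicate 1. Gm25939 (chr1:72255008-72255198, +) had 4036 and 6591 counts and 16791 and 9422 TPM. Gm24497 (chr1:72244213-72244403, +) had 4096 and 4330 counts, 17041 and 6190 TPM. In total the set of Rnu2-10 had 9597 and 25705 counts and that of Gm23444 5084.5 and 12324, more than Gm24497 in both libraries. Compared with single copies, Gm24497 was the highest U2 gene in replicate 1 and lay below those of both sets in replicate 2. Its alignment-free counts, 2857 and 4390, were below those of Rnu2-10 (3856 and 7856) in both libraries, so its rank rests on the table used. Gm25360, with G109C and 3 other differences, had 406 and 1330.1 counts and 1689 and 1901 TPM.

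The lowest U2 members were Gm22973 with 50 and 155 counts (208 and 222 TPM) and Gm26316 with 35.8 and 148 counts (149 and 212 TPM). Gm26316 differs from Rnu2-10 by C170T alone and lies in the same cluster, yet Rnu2-10 had 67.1 and 43.3 times its count. Grouped by the base at position 109, the 5 genes with the base of Rnu2-10 held 41.3% and 51.1% of U2 counts, the 5 with G109C held 58.4% and 48.6%, and Gm22973, with G109A, held 0.215% and 0.306%. Both main variants at this base were thus present in these libraries, each with between 41.3% and 58.4% of the U2 counts.

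The 2 U4 genes are neighbours on chromosome 5, 0.936 kb from the start of Gm24265 to the end of Gm24407 (chr5:115490254-115490394, +). At 141 bases they are the shortest members. Gm24265 had 163 and 1019 counts and 4220.1 and 7759 TPM, and Gm24407 had 70 and 428 counts and 1812 and 3259 TPM. Gm24265 exceeded its neighbour by 2.33 and 2.38 times, a ratio that was 2.97 and 2.58 in the alignment-free counts. Their order was the same in both libraries and both tables.

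Rnu12 was the only counted RNA of the minor spliceosome and the member nearest to the minimum. It had 14 and 135 counts, 219 and 638 TPM, on chromosome 15 outside other annotated genes. Alignment-free counting gave 499 and 1286. The next lowest members inside the minimum were Rnu1b1 and Rnu1b2, described above. Just outside it, Gm22940, a U1-like gene in an intron of Dpy19l4, had 7 and 1 counts, and the U2-like Gm23744, antisense to Cep350, had 2 and 1.

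Summed over the family, U2 genes had 23305 and 50584 counts, U1 genes 10326 and 35196, U4 genes 233 and 1447, and U12 14 and 135. All 30 had 33878 and 87362 counts, 0.251% (95% Wilson interval 0.248 to 0.254) and 0.487% (0.484 to 0.490) of each library, a mean of 0.369% ± 0.167 (SD, n = 2). Intervals cover counting error only. The uncounted snRNA genes added little, as all 1383 summed to 33897 and 87418 counts. U2 took 68.8% and 57.9% of the members' counts and U1 30.5% and 40.3%.

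In counts the ratio of U1 to U2 was 0.443 in replicate 1 and 0.696 in replicate 2. Per effective base, which allows levels of genes of different length to be compared, U1 and U2 were closer in replicate 1. Summed TPM gave U1 9.51% and 10.2% of each library's total and U2 9.70% and 7.23%. The ratio of U1 to U2 was therefore 0.981 in replicate 1 and 1.41 in replicate 2, so the order of the families differed between the libraries on this scale. In alignment-free TPM the ratio was 0.566 and 0.836, with U2 above U1 in both libraries. U4 had 0.603% and 1.10% of TPM and U12 0.0219% and 0.0638%, so both lay below U1 and U2 in each library. U1 exceeded U4 by 15.8 and 9.26 times in summed TPM, by 11.8 and 10.3 times in alignment-free TPM. For U12 the tables disagreed: U1 exceeded U12 by 435 and 160.0 times in TPM and by 25.9 and 23.0 times in alignment-free TPM.

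In all, the 30 genes held 19.8% and 18.6% of gene-table TPM but 3.02% and 1.59% of alignment-free TPM. Gene-table TPM divides each count by an effective length, the number of start positions left after the fragment length distribution is taken into account. That length was 2.82 and 5.72 bases for the U4 genes, 4.68 and 9.22 for Rnu12, 7.89 to 8.46 and 14.96 to 15.95 for U1 genes, and 17.57 and 30.48 for U2 genes. The alignment-free table used effective lengths from 23.8 to 41.7 bases in replicate 1 and 25.9 to 53.1 in replicate 2 for the same genes. Since a TPM is proportional to the inverse of this length, the TPM levels of these genes are specific to the table.

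**Figure D2:**
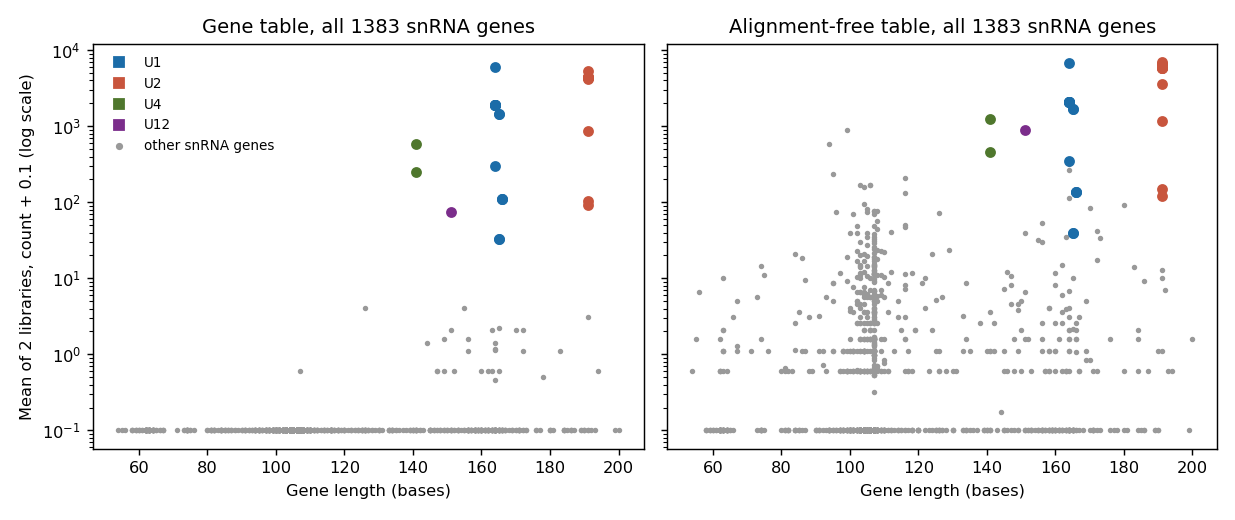
Count of each of the 1383 snRNA genes (mean of the 2 libraries plus 0.1, log axis) against gene length in bases, in the gene table (left) and the alignment-free table (right), with counted genes coloured by family. In the gene table all coloured points lie between 141 and 191 bases and shorter genes sit near 0, while the alignment-free table also has counts for many genes of about 107 bases.

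No gene of the U5, U6, U6atac, U7 or U11 families met the minimum, although U5 and U6 are parts of the same major spliceosome. The counted genes span 141 to 191 bases. Of the 1133 shorter snRNA genes none was counted, and of the 250 at least as long 30 were, or 12%. The gene table gave an effective length of 0 in both libraries to 1072 snRNA genes (77.5%), among them 957 of 958 U6, all 11 U5 and all 61 U7 genes. The highest count of any of those was 1 in replicate 1 and 0 in replicate 2. At an effective length of 0 the table's zeros say nothing on whether the RNA was present.

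In the alignment-free table, 120 snRNA genes (8.68%, against 41.5% of all annotated genes) had at least 10 counts in both libraries. All 30 gene-table members were among them, with 62 U6 and 4 U5 genes and 1 U6atac gene. Rnu5g, a U5 gene of 116 bases, had 81.4 and 179.8 alignment-free counts, and Gm25099, another, had 138 and 280.2. Gm25541, assigned to U6atac by sequence, had 36 and 110 alignment-free counts and 0 and 8 in the gene table, where its effective length was 0 in replicate 1 and 2.08 in replicate 2. U6 genes together had 4149 and 4066 alignment-free counts, 7.0% and 3.74% of the counts of all snRNA genes, and U5 genes 283 and 638. The U6 label needs an alignment score of only 0.3 of the representative's length, and 189 of 958 U6 genes were full length. Gm25549 and Gm24060 had the most alignment-free counts of U6 genes in both libraries. Their scores were 0.43 and 0.33, and they lie in introns of Mapkapk2 and Cyth1. How much of the U6 sum is U6 RNA was not tested. Rnu6, Rnu7 and Rnu11 were at 0 in both tables and both libraries. Rnu11 kept an effective length above 0, of 1.83 and 3.78 bases. Its count of 0 allows up to 3 counts, or 0.222 and 0.167 CPM of the gene table, where CPM is the count scaled to a total of 1e+06. At so short an effective length this is a weak limit on its level. No such limit holds for Rnu6 and Rnu7 in that table, where their effective length was 0.

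The libraries were then compared gene by gene. Every member had more counts in replicate 2, from 1.06 times for Gm24497 to 9.64 times for Rnu12, before the larger total of that library is taken into account. As CPM + 1, and relative to the median of the 14584 countable genes, the members had a median log2 ratio of 1.53 for replicate 2 over replicate 1. Of the 30 members, 26 were over 2-fold higher and 0 lower, against 1.67% higher and 0.377% lower of all countable genes. These are not 30 separate measurements, since identical copies share 1 ratio and the members carry 16 distinct sequences. Over distinct sequences the median was 1.49. The family medians were 1.59 for U1, 1.20 for U2, 2.27 for U4 and 2.26 for Rnu12. Gm24497, at -0.14, was the only member below 0.

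On the TPM + 1 scale the same ratio was smaller. Its median was 0.58 for all members, 0.58 for U1, 0.30 for U2 and 1.29 for U4. Rnu12 was at 1.96 and Gm24265 and Gm24407 at 1.30 and 1.27, and these 3 were over 2-fold higher (background 1.22%). Gm24497, at -1.04, was over 2-fold lower (background 0.487%), a call that ended with a pseudocount of 0.1 TPM (-0.92) and at a minimum count of 100 (-0.98). It was at -0.02 in alignment-free TPM. Rnu1b1, Rnu1b2 and Gm25939 were the other members below 0. Between the libraries the effective length rose 1.73 times for the U2 genes, 1.90 times for U1 genes of 164 bases, 1.97 times for Rnu12 and 2.03 times for the U4 genes, and TPM divides each count by this length. In alignment-free TPM the median was 0.75, with 4 members over 2-fold higher (background 3.75%) and 0 lower (0.837%). Those 4 were Rnu1b6 and its copies Gm24830 and Gm26232, at 1.12 each, and Gm24407 at 1.08. Rnu12 and Gm24265, at 0.90 and 0.88, were not over 2-fold higher on that scale, so Gm24407 was the only gene called by both TPM scales.

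**Figure D3:**
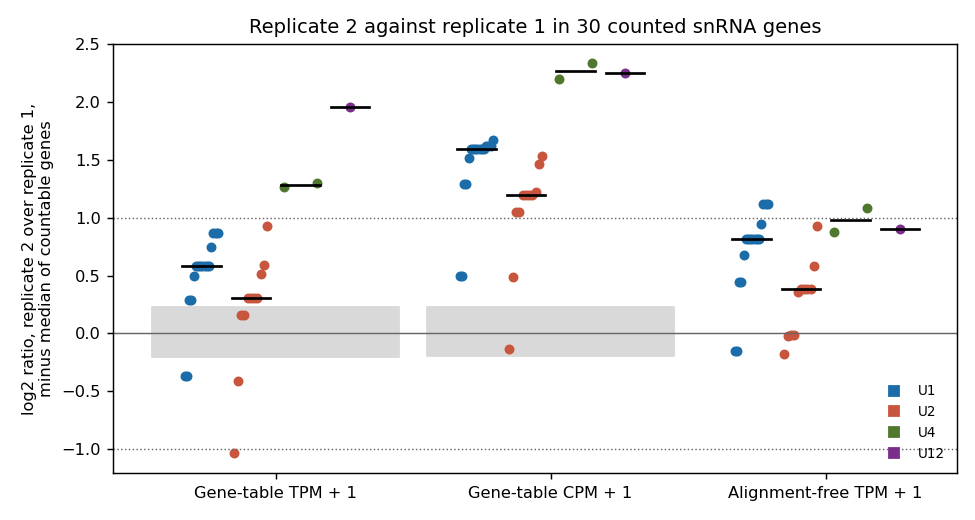
Log2 ratio of replicate 2 to replicate 1 for each counted snRNA gene, minus the median of countable genes, on 3 scales, coloured by family, with black bars for family medians, grey bands for the middle 50% of countable genes (drawn for the first 2 scales) and dotted lines at 2-fold. The points lie mostly above 1 on the CPM scale and mostly between 0 and 1 on both TPM scales.

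Other short noncoding RNAs were also higher in replicate 2 in CPM. The 32 countable small nucleolar and Cajal body RNA genes had a median of 1.58, and 23 exceeded a 2-fold increase (background 1.67%). Rn7sk, the RNA that restrains the elongation factor P-TEFb, was at 1.69. Countable protein-coding genes had a median of -0.01. On the TPM + 1 scale the small nucleolar and Cajal body RNA genes had a median of 0.99, with 16 over 2-fold higher (background 1.22%). Rn7sk was at 1.26 there, and the members' median was 0.58. In alignment-free TPM these 3 values were 0.57, 0.77 and 0.75. With 1 group of 2 libraries no test of these differences was possible. RNA input (500 ng and 1 µg) and the bases lost from length to effective length (median 215 bases in replicate 1 and 184 in replicate 2) also differed between the libraries, and their part in the difference was not tested.

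The alignment-free counts of the members were compared with their gene-table counts. The median member had 1.56 times its gene-table count in replicate 1 and 1.16 times in replicate 2, and all countable genes had 1.85 and 1.38 times. U1 and U2 members were at 1.51 and 1.61 in replicate 1 and at 1.03 and 1.22 in replicate 2. The U4 genes were further apart, with 4.44 and 1.74 times for Gm24265 and 3.48 and 1.60 times for Gm24407. Rnu12 stood apart with 35.6 and 9.53 times. The only member with fewer alignment-free counts was Gm24497 in replicate 1, at 0.698 times. The members with the shortest effective lengths, U4 and U12, were those with the largest ratios in both libraries, which is a description over 3 genes.

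**Figure D4:**
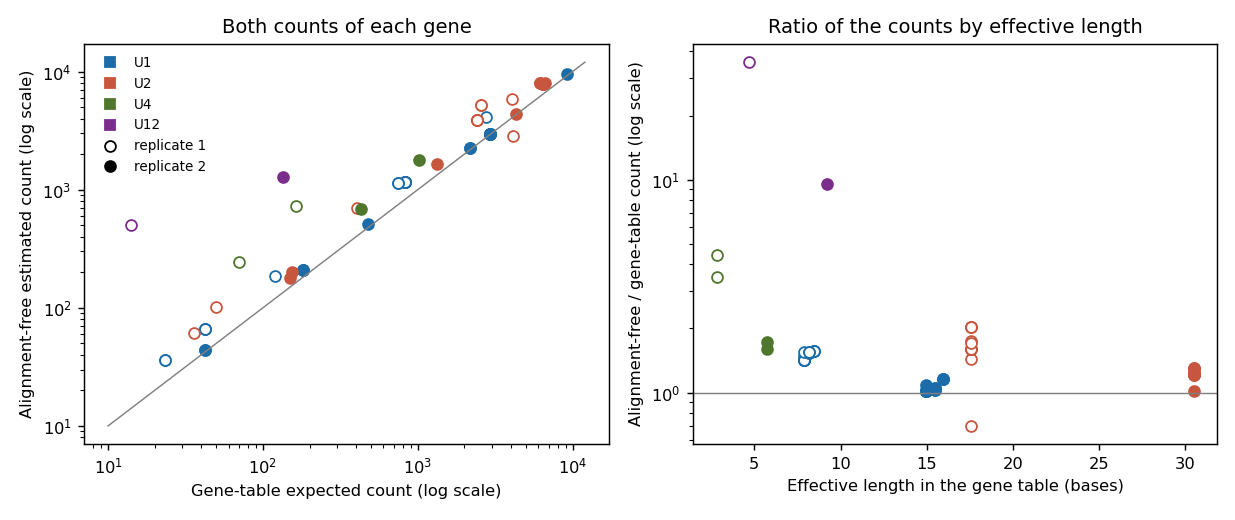
Left, alignment-free estimated count against gene-table expected count for the 30 genes on log axes, with the line of equal counts; right, the ratio of these counts (log axis) against the gene-table effective length in bases, with open circles for replicate 1 and filled circles for replicate 2. Points below 10 bases and belonging to U4 and U12 reach from 1.60 to 35.6 times, while U1 and U2 points stay between 0.698 and 2.04.

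Identical copies cannot be told apart by sequence, and 20 of the 30 genes belong to 6 sets of copies. The tables gave each copy of a set the same expected count, so the values above for such genes are a set's total divided by its size. The gene table also lists a posterior mean count and its SD from the authors' quantifier, and these show how far the reads fix each locus. For Rnu1a1 they were 972 ± 544 in replicate 1 and 2789 ± 1108 in replicate 2, for Rnu2-10 2167 ± 1404 and 6874 ± 2308. For Gm22513 they were 2763 ± 0.52 and 9265 ± 1.06, and for Gm25939 4036 ± 0.60 and 6591 ± 1.24. The U4 genes, Gm22973 and Rnu12 had an SD of 0. Of the 10 members with a sequence of their own, 7 had an SD below 1 in replicate 1. Gm24497 was an exception, with 3094 ± 1241 and 5606 ± 2059, against expected counts of 4096 and 4330. Within 1 SD its posterior counts in replicate 1 overlap those of Rnu2-10, and the same holds in replicate 2. Gm23444 and Gm23472, which lack only the C186A of Gm24497, shifted the other way. Their summed posterior means were 6086 and 11048, against expected totals of 5084.5 and 12324. The set of Rnu2-10 hardly moved, with 9596 and 25705 by posterior means and 9597 and 25705 by expected counts. The 7 genes of the Rnu1a1 sequence were lower by posterior means, with 5156 and 18251 in sum, against expected totals of 5770 and 20498. Not all of that total is thus fixed to these 7 genes.

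**Figure D5:**
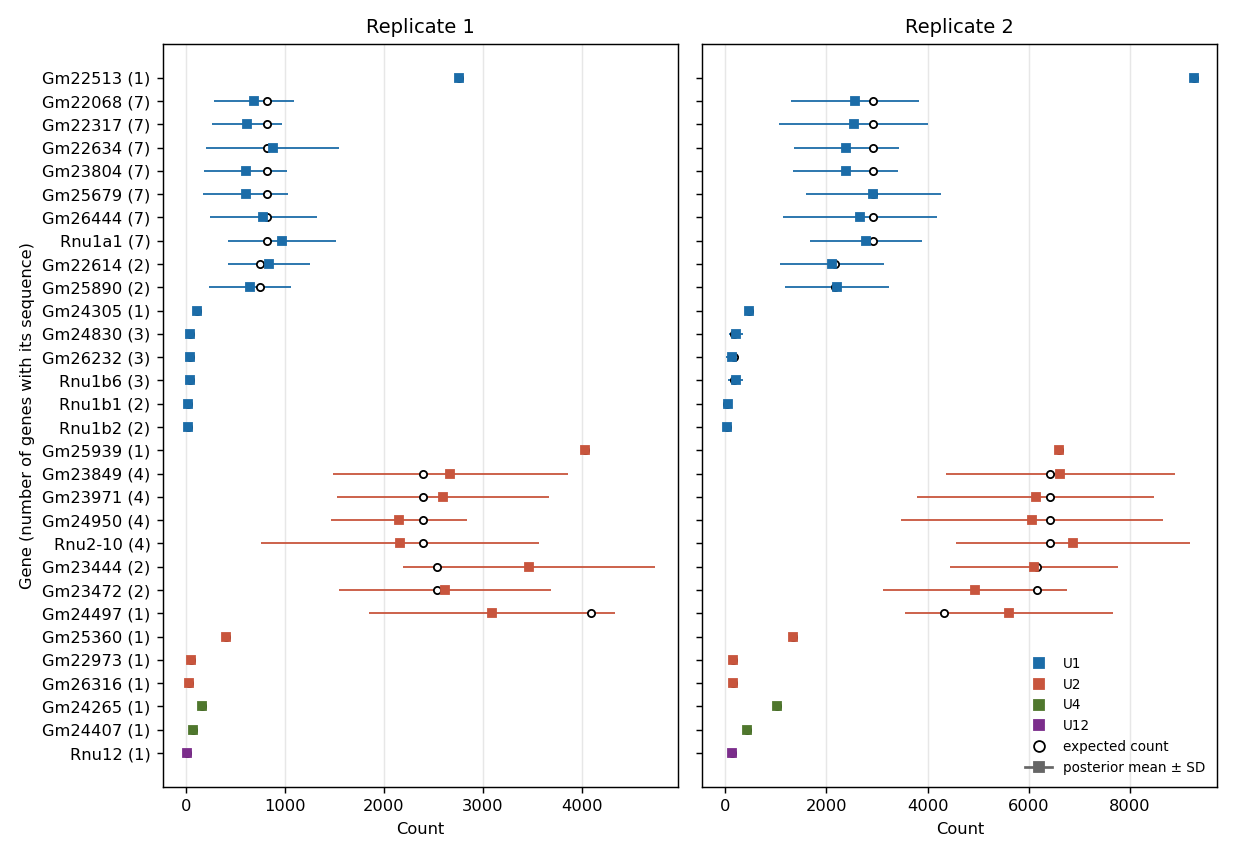
Expected count (open circles) and posterior mean ± SD (squares with bars) of each counted gene in replicate 1 (left) and replicate 2 (right), with the number of genes that share its sequence in brackets. Bars are wide for genes with copies and for Gm24497, and are shorter than the symbols for Gm22513, Gm25939, the U4 genes and Rnu12.

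Some uncounted U1 genes depend on the same choice. Gm24924 in Ss18 and Gm26244 in Rock1 had expected counts of at most 2.58, but posterior means of 256 ± 182 and 1151 ± 872 for Gm24924 and 358 ± 310.2 and 1099 ± 618 for Gm26244. With the posterior mean in place of the expected count, 32 genes met the minimum. Of the 30 members, 22 lay outside other genes, 6 lay in an intron of a gene on the same strand and 2 lay antisense to a gene. The same-strand hosts were low in the gene table. Tex14 (Rnu1a1, Gm22068) had 0.19 and 0.20 TPM, Rdm1 (Gm23849) 3.72 and 5.12, and the lincRNA D230017M19Rik (Gm23472, Gm24497, Gm25939) 0.69 and 0.30. In alignment-free TPM Tex14 was at 17.0 and 3.33, Rdm1 at 3.18 and 1.12, and D230017M19Rik at 1.69 and 0.406. The low level of Tex14 therefore rests on the table used.

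The proteins with which snRNAs assemble, and those that make them, were examined through 13 gene lists of 118 genes, of which 117 were found. At 1 TPM or more in both libraries, 105 of 117 were detected (89.7%), against 44.5% of all protein-coding genes. The pooled median log2(TPM + 1) of the 117 genes, detected or not, was 2.76 ± 0.35 (SD, n = 2). Protein-coding genes as a whole, detected or not, had a median of 0.67 ± 0.22, which was lower. The detected protein-coding genes alone had 3.40 ± 0.33, a value that leaves out undetected genes while that of the lists does not. Of the 113 countable list genes, replicate 2 was over 2-fold higher in TPM in 0 and lower in 1, Gemin4 of the SMN complex. These shares are read against 1.22% and 0.487% of countable genes. Gemin4 had 4.12 and 0.31 TPM, but its expected counts were close to each other, at 27.4 and 24.1. In contrast to the snRNAs the lists' median ratio was -0.11. These levels are of nuclear RNA, not of the proteins.

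The U1 proteins had a median of 4.2 ± 0.11. Snrnp70, whose protein binds a stem-loop of U1, had 127 ± 20.9 TPM, while the genes of the other U1-specific proteins, Snrpa and Snrpc, had 17.4 ± 1.44 and 3.66 ± 2.31. The U2 list had 2.90 ± 0.49, with the branch-site protein Sf3b1 at 134 ± 37.4 TPM, Sf3b2 at 44.0 ± 14.3 and Sf3b5 at 0.495 ± 0.120. The Sm proteins, shared by all 4 counted families, had 1.75 ± 0.35, with 6 of 8 detected. Snrpb and Snrpd1 had 6.33 ± 0.368 and 6.25 ± 1.64 TPM and Snrpn was listed at 0.

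The U4/U6 and tri-snRNP list had 3.06 ± 0.31, led by the recruitment factor Sart1 at 24.4 ± 8.75 TPM and Prpf3 at 11.3 ± 3.66, with Prpf4 lowest at 3.48 ± 1.48. The U5 list had 4.09 ± 0.44, where Prpf8, the scaffold of the catalytic core, had 20.4 ± 6.72, the helicase Ddx23 19.7 ± 1.76 and Txnl4a 0.935 ± 0.191. The LSm ring that binds U6 had 2.03 ± 0.052, with Lsm4 at 5.38 ± 0.757, Lsm8 at 4.14 ± 1.09 and Lsm2 at 1.57 in both libraries. Transcripts of proteins of U5 and U6 particles were thus measured although the RNAs themselves were not counted. In the minor spliceosome list (3.15 ± 0.19, 8 of 9 detected), Zrsr2, which recognises the 3′ splice site of minor introns, had 33.6 ± 5.28 TPM, Zcrb1 25.0 ± 6.57 and Snrnp25 1.10 ± 0.325. The U7 list, for the snRNA particle that cuts histone pre-mRNA, had 1.47 ± 0.17, with the stem-loop binding protein Slbp at 8.14 ± 1.34, Lsm10 at 3.48 ± 0.191 and Zfp473 at 0.460 ± 0.0424.

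Transcripts of genes for making snRNAs were also detected. The transcription list, which includes the SNAPc complex that binds snRNA promoters, had 3.07 ± 0.49, with Snapc3 at 35.9 ± 12.8 TPM, Snapc4 at 20.8 ± 5.13 and Brf2 at 1.66 ± 1.03. Integrator, which cleaves the nascent snRNA, had 14 of 14 members detected and 3.19 ± 0.46, from Ints6 at 43.7 ± 2.64 and Ints1 at 18.2 ± 8.85 to Ints5 at 1.90 ± 0.431. The export, cap and SMN complex list was lower, at 1.78 ± 0.42, with Tgs1, which makes the trimethylguanosine cap, at 21.6 ± 7.47, Strap at 6.91 ± 0.905 and Gemin6 at 0.155 ± 0.219. The 4 genes listed for the Cajal body, the nuclear body in which snRNAs are modified, had 1.91 ± 0.33. The highest of them, Sp100 at 104 ± 29.7, is better known as a component of PML nuclear bodies. Nolc1 was at 4.01 ± 0.580 and Coil, which encodes the Cajal body marker coilin, at 1.46 ± 0.651. The end processing, decay and modification list had 3.20 ± 0.12, with the La protein gene Ssb at 27.7 ± 10.7, the exonuclease gene Xrn1 at 24.4 ± 4.41 and Toe1 at 3.98 ± 0.573. The SDs of these medians between the libraries reached 0.49.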

How the data were processed

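The measurements are total RNA-seq of 2 libraries of a single group. Expected counts, posterior mean counts with their SD, TPM, length and effective length per gene are deposited values that the authors derived from transcriptome alignments, per the readme, on mm10 with GENCODE M21. Estimated counts and TPM per transcript of the alignment-free table were made by the authors from reads and an index, per the deposited readme, and were summed here per gene (effective lengths averaged). No source used here names the quantifiers or says whether strand was used. Rows that are no annotated Ensembl gene stayed out of count totals, and TPM was used as deposited. Types, positions and sequences came from GENCODE M21. Promoter sequences were not used here.

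The members, the gene lists and the rules were chosen with earlier results of these data known. Named genes are all 30 members, the 2 highest and the lowest of each list by mean TPM, hosts of named members, and genes named in the text as nearest the minimum, over 2-fold apart, or flagged. Those last were chosen after their values were seen. Ratios of replicate 2 to replicate 1 used TPM + 1 or CPM + 1 over the 14584 genes with at least 10 expected counts in both libraries, minus their median. Families were assigned by local alignment (Biopython 1.88, match 1, mismatch -1, gap opening -2, extension -1), at a score of at least 0.3 of the representative's length. Clusters join members within 500 kb. For the TMM factors of edgeR 4.0.16 and the size factors of DESeq2 1.42.0, expected counts were rounded to whole numbers. No p-value was computed, as there is a single group. The alternatives were other minimums, pseudocounts, scalings, the alignment-free table and each library alone, while posterior mean counts and distinct sequences were added after the data were seen.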

Additional observations from a re-analysis of the deposited data

Results flagged for a closer look

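These values were flagged because counts above the limit of a zero appeared in a table outside the counts that chose the members. Gm24996, a gene of 99 bases annotated as snRNA in an intron of Nfe2l2 and assigned to none of the 9 families, had 1120 alignment-free counts in replicate 1 and 662 in replicate 2 and 0 in the gene table. Gm25549, a U6-like gene of 94 bases in Mapkapk2, had 402 and 764, again with 0 in the gene table. Of 1324 snRNA genes at 0 in both gene tables, 149 (11.3%) had over 3 alignment-free counts in both libraries. Both named genes had a gene-table effective length of 0. What produced these counts was not tested.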

How the results depend on the processing

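No paired analysis was possible because both libraries belong to the same group. The count of members was 29 to 30 at minimums of 5 and 20, 21 at 100, 30 from either library alone and 32 by posterior means, but 120 by alignment-free counts. The members' share was 0.296% by alignment-free counts, 0.251% to 0.487% in single libraries and 19.2% as a share of TPM. Their median log2 ratio of 0.58 became 0.70 with a pseudocount of 0.1, 0.16 without centring (all countable genes moved by -0.42), 1.53 with CPM, TMM or DESeq2 scaling, 1.49 over distinct sequences by CPM, 0.75 with alignment-free TPM and 1.44 with alignment-free counts. The 4 members over 2-fold apart became 2 without centring, 26 with CPM, TMM or DESeq2 scaling, 24 with alignment-free counts and 1 at a minimum of 100, where fewer genes enter. With a pseudocount of 0.1 the number stayed at 4, but Gm26316 (1.05) entered and Gm24497 (-0.92) left. The ratio of alignment-free to gene-table counts, 1.35, was 1.16 to 1.56 in single libraries and 0.0972 for TPM. The pooled list median of 2.76 was 2.51 to 3.01 in single libraries, 1.90 with alignment-free TPM and 3.71 with CPM.

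Ratios changed sign as follows, and the cause was not tested. Without centring, the U2 median and the 4 genes of the Rnu2-10 sequence were at -0.12, Gm22614 and Gm25890 at -0.14, and Gm23444 and Gm23472 at -0.26, the latter pair also at -0.013 with alignment-free TPM. With CPM, TMM scaling, DESeq2 size factors and alignment-free counts, Rnu1b1 and Rnu1b2 were at 0.50, 0.45, 0.45 and 0.39, and Gm25939 at 0.49, 0.51, 0.51 and 0.66. Gm24497 was at 0.82 with alignment-free counts. Fragment counts of 14 to 70 in replicate 1 limit the precision for Rnu12, Gm24407, Gm22973, Gm26316 and the Rnu1b genes.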

Other observations

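Members differed in where they lie from the uncounted snRNA genes with at least 10 alignment-free counts in both libraries. This is given as a description, and many members are copies that share a cluster. Of the 30 members, 20.0% lay within a gene on the same strand and 73.3% outside other genes. Of the 90 uncounted snRNA genes with at least 10 alignment-free counts in both libraries, 50.0% lay within a gene on the same strand, 40.0% only antisense to a gene and 10% outside genes, and their same-strand hosts had a median log2(TPM + 1) of 4.89. Of the 1263 below that, these shares were 20.7%, 21.2% and 58.1%, with hosts at 0.32. Their same-strand share was close to that of the members. Gm24060, a U6-like gene in Cyth1, had 254 and 214 alignment-free counts, and its host 59.9 and 48.0 TPM. Nfe2l2 had 367 and 342 TPM and Mapkapk2 52.2 and 106. Whether host transcripts contribute to these counts was not tested.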
